A study of Mus musculus with 6 samples.

Results

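The acute response of wild-type (WT) mouse peritoneal macrophages to lipopolysaccharide (LPS) was described from a pair of RNA libraries, 1 from naive cells and 1 from cells given 1000 ng/ml LPS for 4 h. A gene was included where its estimate was marked OK in both libraries, its symbol was listed once, and it reached 2 FPKM in either library (Cufflinks fragments scaled by transcript length and by library size). These conditions were met by 10263 of 23699 rows, and 26 of them were small RNA genes that poly-A libraries do not measure, which left 10237 genes. The threshold falls in a dense range of low values. Elp4 was just inside it with 2.001 FPKM in naive cells and 0.830 with LPS, and Tceanc was just outside it with 1.999 and 0.487.

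All cells were C57Bl/6 peritoneal macrophages, the phagocytes of the abdominal cavity, kept in DMEM with serum, and naive cells received no agent. The same naive and LPS conditions were also sequenced, 1 library each, from mice labelled miR-221/222 -/Y, knockouts (KO) of that pair of microRNAs, and tolerized cells of each genotype received 10 ng/ml LPS for 15 h, 2 h of rest and then 1000 ng/ml for 4 h. The mature microRNAs were not measured in these poly-A libraries. The design text names triplicates, but 1 library represents each of the 6 groups, and how many animals it pools is not given in the sources used here.

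LPS is the cell wall glycolipid of Gram-negative bacteria. It is passed by Cd14 to the receptor Tlr4 and its partner Ly96 (MD-2). The adaptors Tirap and Myd88 then lead to activation of NF-kappaB and AP-1, factors that switch on cytokine and chemokine genes. The adaptors Ticam2 and Ticam1 (TRAM and TRIF) lead through Irf3 to interferon-beta, and secreted interferon acts back on the cells through its receptor and activates factors, Stat2 and Irf9 among them, that bind the interferon-stimulated response element (ISRE) and switch on antiviral genes.

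Sequences 250 bases long that end at the base before the annotated start of transcription are given for 6 genes that recur in the results (RefSeq, GRCm38.p6, 5′ to 3′ on the gene's strand). Ifit1 and Isg15, both antiviral genes that were over 64-fold higher with LPS, are shown for ISRE cores in capitals, that is GAAA, any 2 bases and GAAA again, on either strand. The window of Ifit1 lies on chr19:34640639-34640888 (+ strand) with cores from bases -104 and -85, and that of Isg15 on chr4:156200819-156201068 (- strand) with 3 overlapping cores from bases -78, -72 and -66.
Ifit1: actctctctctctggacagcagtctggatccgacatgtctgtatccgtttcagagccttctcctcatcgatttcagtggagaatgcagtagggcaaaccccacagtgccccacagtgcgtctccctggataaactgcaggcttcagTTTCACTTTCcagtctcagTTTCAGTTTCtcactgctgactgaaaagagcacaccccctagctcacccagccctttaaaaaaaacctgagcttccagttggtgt
Isg15: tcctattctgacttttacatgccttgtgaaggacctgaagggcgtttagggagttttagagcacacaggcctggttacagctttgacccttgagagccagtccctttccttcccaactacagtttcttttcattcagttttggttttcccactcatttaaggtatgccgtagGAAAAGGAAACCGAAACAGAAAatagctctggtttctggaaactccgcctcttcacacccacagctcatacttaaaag

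Cxcl10, Cxcl1 and Il6 are shown because they were among the 4 genes with the largest ratios, and their capitals mark matches to the kappaB consensus or, in Cxcl10, also an ISRE core. Cxcl10 (chr5:92348890-92349139, - strand) holds an ISRE core from base -213 and kappaB matches from bases -159 and -103. Cxcl1 (chr5:90890995-90891244, + strand) holds a pair of kappaB matches on opposite strands that overlap, from bases -71 and -70, and Il6 (chr5:30012864-30013113, + strand) holds 1 match from base -44.
Cxcl10: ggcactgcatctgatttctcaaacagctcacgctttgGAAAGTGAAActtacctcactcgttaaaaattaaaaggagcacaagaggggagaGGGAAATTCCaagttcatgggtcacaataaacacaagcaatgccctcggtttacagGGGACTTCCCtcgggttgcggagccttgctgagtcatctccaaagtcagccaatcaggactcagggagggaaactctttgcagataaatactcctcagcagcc
Cxcl1: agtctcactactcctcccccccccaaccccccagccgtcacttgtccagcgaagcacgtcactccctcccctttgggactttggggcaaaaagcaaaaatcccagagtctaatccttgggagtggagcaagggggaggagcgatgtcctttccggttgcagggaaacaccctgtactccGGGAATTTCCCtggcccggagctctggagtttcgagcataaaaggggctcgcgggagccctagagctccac
Il6: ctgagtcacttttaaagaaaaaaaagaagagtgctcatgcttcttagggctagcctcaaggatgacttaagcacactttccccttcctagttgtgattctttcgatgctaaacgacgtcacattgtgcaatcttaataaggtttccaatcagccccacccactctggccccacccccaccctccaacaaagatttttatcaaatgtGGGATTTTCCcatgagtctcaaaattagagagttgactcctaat

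Ctsd, the lysosomal protease cathepsin D, was among the 5 most abundant included messages of naive cells and was lower with LPS. Its window (chr7:142387828-142388077, - strand) holds the letters CACGTG, the E-box at the centre of the CLEAR element of lysosomal genes, from bases -245 and -98.
Ctsd: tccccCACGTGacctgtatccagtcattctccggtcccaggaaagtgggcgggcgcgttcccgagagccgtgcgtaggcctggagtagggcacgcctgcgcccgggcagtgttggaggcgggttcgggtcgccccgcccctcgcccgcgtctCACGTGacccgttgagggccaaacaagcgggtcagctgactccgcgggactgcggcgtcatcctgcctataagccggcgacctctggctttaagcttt

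A small set of genes took over much of the message pool, while most genes fell back in share. Of the 10237 genes, 836 were at least 2-fold higher with LPS (8.17%) and 4070 at least 2-fold lower (39.8%). Ratios are log2 of LPS over naive on FPKM + 1, which understates the change of genes with low values. The all-gene median was -0.74, and 76.3% of genes had the higher value in naive cells. Genes at least 2-fold higher held 7.0% of member FPKM in naive cells and 46.6% with LPS, and those at least 2-fold lower held 38.6% and 10.7%. FPKM is relative and no spike-in was used, so a fall in share and a fall in RNA per cell cannot be told apart, nor can fewer cells of a type and less RNA per cell. Rescaled so that the median ratio was 0.00 (median of ratios), the split was 1849 genes 2-fold higher (18.1%) and 1880 lower (18.4%). Where a gene is described as within 2-fold, that holds on the deposited scale.

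The upper tail reached further than the lower tail. At 4-fold there were 362 genes higher and 1085 lower, at 8-fold 201 and 230, at 16-fold 105 and 46, at 64-fold 37 and 1, and at 256-fold 19 and 0. The 37 genes at least 64-fold higher took 0.06% of member FPKM in naive cells and 22.01% with LPS. The deposited intervals, which cover counting error only, had a median half-width of 5.3% in naive cells and 5.7% with LPS from 10 FPKM upward, and of 14.7% and 15.3% at 2 to 5 FPKM. Taking the bounds nearest to each other, 703 genes were still 2-fold higher and 3076 still 2-fold lower.

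**Figure D1:**
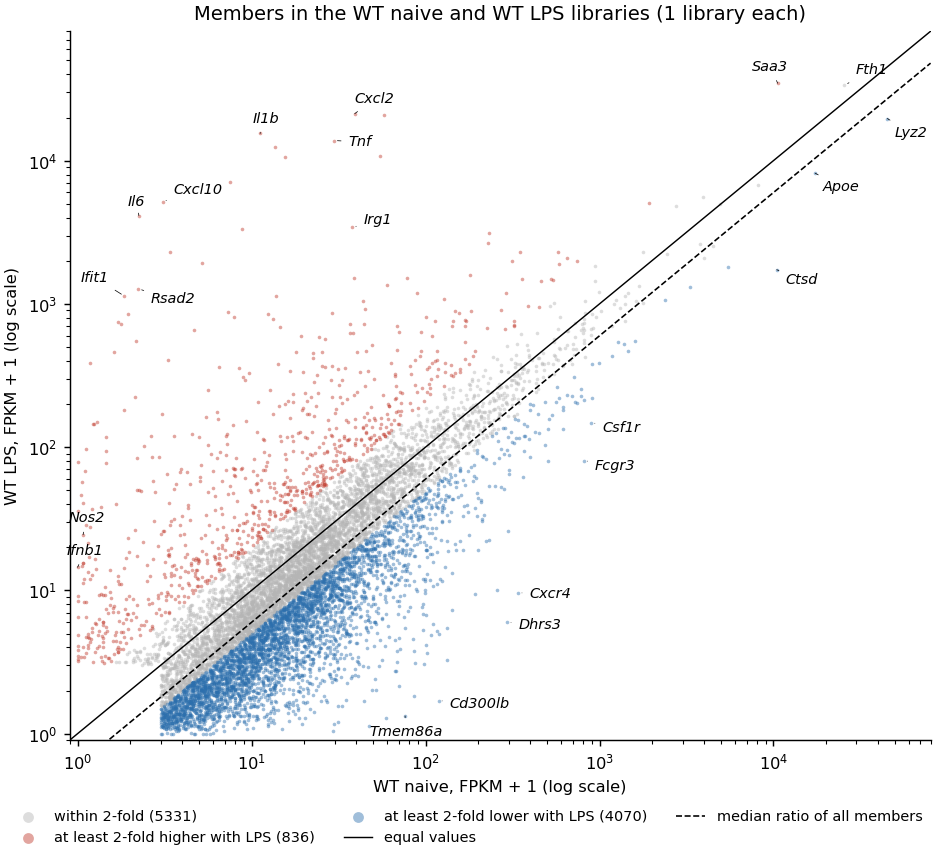
FPKM + 1 of each of the 10237 genes in the WT naive library (horizontal, log scale) against the WT LPS library (vertical, log scale), coloured by the 2-fold rule, with the line of equal values and, dashed, the all-gene median log2 ratio of -0.74. The 836 genes that were higher spread far above the line, up to Il6 and Cxcl10, while the 4070 that were lower lie in a dense band below it.

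With 1 library per group there is no test of the WT pair itself. The KO pair was the only other naive and LPS pair. In a limma fit on log2(FPKM + 1) over all 6 libraries, with genotype and condition as terms, 887 of 10137 genes rose with LPS (8.75%) and 5511 fell (54.4%) at an adjusted p under 0.05. That fit averages WT and KO, counts an effect present in 1 genotype as spread, and had 2 residual degrees of freedom. The WT pair is itself inside the fit, so calls on genes picked by the WT ratio, the leading genes below included, are partly built in. Of the 819 genes at least 2-fold higher in WT that the fit tested, 661 rose and 0 fell, and of 3884 at least 2-fold lower, 3735 fell and 0 rose. Below, a gene that "rose" or "fell" did so by that test, whereas "higher" and "lower" describe the WT pair.

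The leading 15 genes were all secreted mediators, antiviral genes or lipid enzymes. Il6, the cytokine interleukin-6 (chr5:30339701-30346508, mm9), had 1.25 FPKM in naive cells (interval 0.727 to 1.77) and 4138 with LPS (4106 to 4169), a log2 ratio of 10.85 with bounds of 10.54 and 11.24. Cxcl10, a chemokine for T cells, had 2.08 and 5175 FPKM, a log2 ratio of 10.71. Il1b, the pyrogenic interleukin-1 beta, had 10.2 and 15482 FPKM, a log2 ratio of 10.44. Genes were ranked only where they reached 10 FPKM in either library and their naive and LPS intervals did not overlap. Il6, Cxcl10 and Il1b were followed, from a log2 ratio of 9.88 down to 8.56, by Cxcl1, Ccl4, Il1a, Ptgs2, Ifit1, Rsad2, Cxcl2, Tnf, Ch25h, Oasl1, Il27 and Cxcl3. Ptgs2, the inducible cyclooxygenase, had 2.38 FPKM in naive cells and 2298 with LPS. Ch25h, which makes 25-hydroxycholesterol, had 0.956 and 853.7. All 15 rose in limma, with adjusted p-values from 0.000252 (Cxcl10 and Rsad2) to 0.0137 (Cxcl3).

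The 15 genes with the lowest ratios came from membrane, lipid and signalling functions rather than from 1 family. Cd300lb, an activating immune receptor of myeloid cells (chr11:114784095-114795700, mm9), had 117.8 FPKM in naive cells (114.9 to 120.7) and 0.701 with LPS (0.467 to 0.934), a log2 ratio of -6.13. Tmem86a had 75.3 and 0.329 FPKM, a ratio of -5.84, and Dhrs3, a retinal reductase, had 294.6 and 5.0, a ratio of -5.62. These genes too were ranked only where the naive and LPS intervals did not overlap. Abcd2, a peroxisomal fatty acid transporter, had 46.6 and 0.127 FPKM. Cxcr4, the receptor for the chemokine Cxcl12, had 340.7 and 8.63. Others were Arl11, Engase, Rgs2, Sesn1, Thbd, Rasa3, Rassf3, Eepd1 and Mxd4, and all 15 fell in limma, with adjusted p-values from 0.000344 (Tmem86a and Arl11) to 0.00705 (Thbd).

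**Figure D2:**
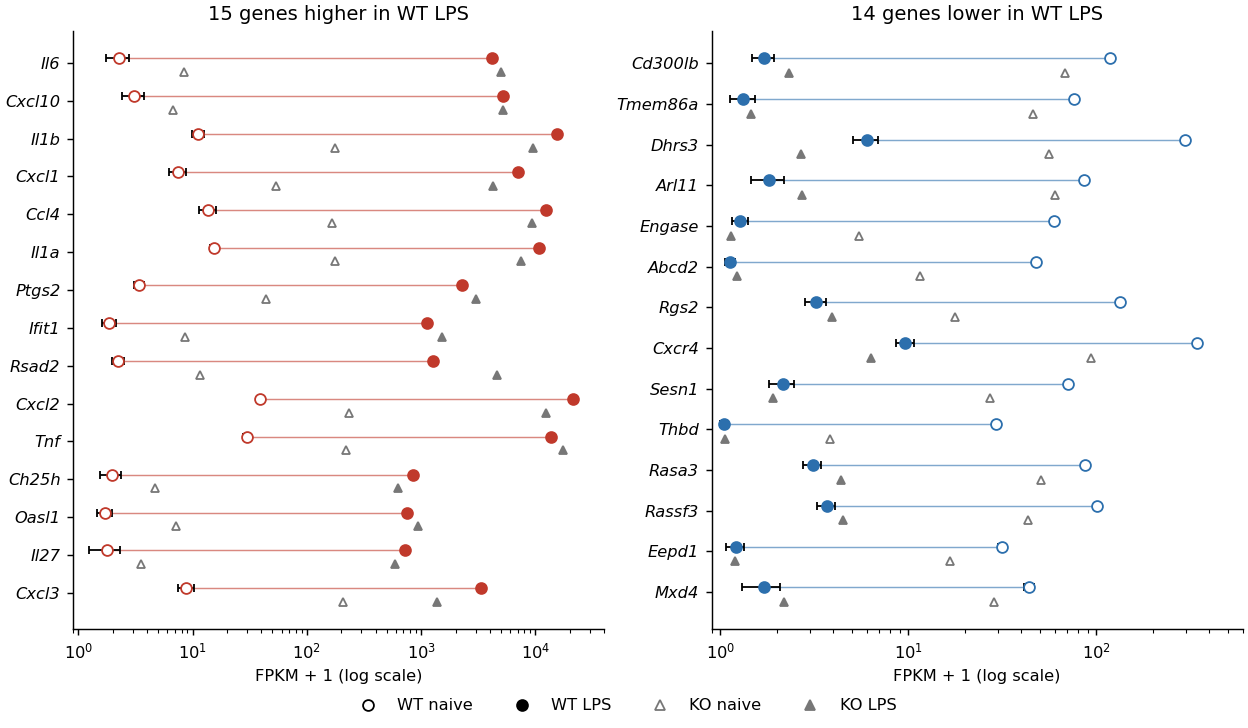
FPKM + 1 (log scale) of the 15 genes with the highest WT log2 ratios (left) and 14 of the 15 with the lowest (right) among genes with at least 10 FPKM and intervals that do not overlap. Circles are the WT libraries, open for naive and filled for LPS, with the deposited intervals as bars, and triangles are the KO libraries, which lie closer together than the WT libraries for each of the 15 genes on the left.

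Among genes that went from nearly unread to clearly read, 32 had under 0.5 FPKM in naive cells and at least 10 with LPS. They included the secreted factors Csf2 (0.173 to 388.4 FPKM), Lif (0.225 to 144.8) and Edn1 (0.111 to 95.3). Areg, an EGF receptor ligand, was listed at 0 in naive cells and had 78.3 FPKM with LPS. Further members of this set were the cytokine subunits Il12a, Il12b and Il23a, the soluble pattern recognition protein Ptx3, the adhesion molecule Vcam1 and the nitric oxide synthase Nos2. In the reverse direction, 34 genes had at least 10 FPKM in naive cells and under 0.5 with LPS. Thbd, the anticoagulant receptor thrombomodulin, had 28.3 and 0.0444 FPKM. Cx3cr1, the fractalkine receptor, had 12.2 and 0.236, and the circadian factor Dbp had 21.9 and 0.421. Others were Lpin1, which makes diacylglycerol, the prostaglandin dehydrogenase Hpgd, the ubiquitin ligase subunit Fbxo32 and the lysosomal sulfatase Sgsh.

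The receptor and adaptor genes through which LPS signals differed in direction. Of 18 measured genes of the TLR4 complex and its adaptors, 3 were at least 2-fold higher and 4 lower, against 8.17% and 39.8% of all genes, with a median log2 ratio of -0.18 against -0.74 over all genes. In limma 5 rose and 5 fell. Tlr4 itself had 16 FPKM in naive cells and 12.2 with LPS, and Ly96 had 78.6 and 73.0. Cd14 had 345.9 and 2297 FPKM, Ripk2, a kinase downstream of Nod receptors, 23.3 and 99.0, and Myd88 43.4 and 162.0, and all 3 rose in limma (adjusted p = 0.0131, 0.00201 and 0.00185). Ticam2, the bridging adaptor of the TRIF branch, had 24.3 and 6.70 FPKM, Irak4 21.4 and 6.74, and Irak1 43.3 and 18.3, and all 3 fell as deposited but did not pass limma after rescaling (adjusted p = 0.0998, 0.0727 and 0.0746). Other Toll-like receptors differed in direction. Tlr13 and Tlr8, sensors of RNA, were lower (163.2 to 18.1 and 91.3 to 13.7 FPKM) and fell, the call for Tlr8 being lost after rescaling (adjusted p = 0.114), and Tlr3, the sensor of double-stranded RNA, was higher (3.94 to 11) and rose. After rescaling, the median of the TLR4 list was 0.62, with 6 genes past 2-fold upward and 0 downward, and 9 rose and 0 fell in limma.

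Genes that restrain NF-kappaB were among those that were higher. All 14 NF-kappaB subunits, IkappaB proteins and IkappaB kinases were measured, with a median log2 ratio of 1.32. Of these, 7 were at least 2-fold higher and 0 lower, against 8.17% and 39.8% of all genes. Nfkbiz (IkappaB-zeta), a nuclear cofactor for Il6 transcription, had 16.3 FPKM in naive cells and 232.6 with LPS, and Nfkbia (IkappaB-alpha), the cytoplasmic inhibitor, 99.8 and 809.3. Of the subunit genes, Nfkb1 (81.2 and 324.7) and Nfkb2 (37.7 and 230.7) were past 2-fold, and Rela (48.4 and 95.7), Relb (35.9 and 59.7) and Rel (16.7 and 33.5) were within it. After rescaling, all 14 genes of the list were past 2-fold. In limma 8 of the 14 rose and 0 fell. Of 21 measured negative regulators of Toll-like receptor signalling, 16 were higher and 3 lower (median 1.83), and 14 rose and 2 fell. Socs1, an inhibitor of Jak kinases, had 1.65 and 119.2 FPKM, and Tnfaip3 (A20), which edits ubiquitin chains, 39.6 and 463.1. Zc3h12a, an RNase that cuts cytokine messages, had 21.3 and 125.6. In the other direction, Inpp5d (SHIP1), a phosphatase of PI3-kinase lipids, had 95.5 and 4.31 FPKM and fell (adjusted p = 0.000431).

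Immediate early factors differed in direction. Of 22 measured AP-1, ATF, EGR and KLF genes, 11 passed 2-fold upward and 5 downward, against 8.17% and 39.8% of all genes. The median was 1.02. After rescaling 13 were past 2-fold upward and 2 downward. Fos had 16.8 FPKM in naive cells and 4.23 with LPS and fell, although not after rescaling (adjusted p = 0.135), whereas Fosl1 had 0.271 and 13, Junb 112.7 and 397.4, and Batf2 3.44 and 54.2, and these 3 rose. Maff, a small Maf protein, had 4.06 and 60.7 FPKM, and Myc 5.02 and 50.6. Atf3, which damps cytokine genes and was already abundant in naive cells, had 197.6 and 194.1. Egr2 had 69.2 and 14.6 FPKM and Klf2 29.5 and 8.13, and both fell.

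Secreted cytokines had the highest median of the 50 gene lists examined. Of 25 measured, 21 were at least 2-fold higher and 1 was lower, against 8.17% and 39.8% of all genes. Their median was 5.46, and 22 rose in limma and 0 fell. Tnf, the early inflammatory cytokine, had 28.7 FPKM in naive cells and 13818 with LPS. Il27, which shapes T cell responses, had 0.771 and 724.8, and the anti-inflammatory Il10 had 1.26 and 49.0. Ebi3, the partner subunit of Il27, had 21.2 and 38, and Tgfb1 162.7 and 168.4, so these stayed within 2-fold. Vegfa was the 1 lower gene, with 18.1 and 7.39 FPKM, and did not pass limma. Ifnb1, the interferon gene of the TRIF branch, was listed at 0 in naive cells and had 13.5 FPKM with LPS (KO 0.103 and 134.0). Il1rn, the interleukin-1 receptor antagonist, was not included because its LPS estimate was marked as failed.

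Most measured chemokines were higher. Of 10 CXC chemokines 7 were at least 2-fold higher and 1 was lower (median 3.40), against 8.17% and 39.8% of all genes. Of 11 CC chemokines 9 were higher and 0 lower (median 3.68). Ccl3 had 57.0 FPKM in naive cells and 20884 with LPS, and Ccl5 54.0 and 10776, each a chemokine for monocytes and T cells. Cxcl2, a neutrophil attractant, reached 21286, the third highest value among the included genes with LPS. Cxcl13, Cxcl16 and Ccl6 had 325.9, 199.2 and 314.4 FPKM in naive cells and 386.5, 291.7 and 216.1 with LPS. Cxcl14 had 37.7 and 8.05 and fell. Of the receptors, 4 of 11 were higher and 6 lower, against 8.17% and 39.8% of all genes. Fpr1 and Fpr2, receptors for bacterial formyl peptides, had 42.7 and 35.7 FPKM in naive cells and 1052 and 723.6 with LPS. Fpr1 rose (adjusted p = 0.00954), and Fpr2 did not pass (0.0719), with KO values of 573.8 and 769.9. Ccr1 (50.6 and 11.8), a receptor for Ccl3 and Ccl5, fell.

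Every measured gene of the antiviral effector list and of the interferon-inducible GTPase list was higher. All 29 antiviral effectors were at least 2-fold higher (median 4.57), against 8.17% of all genes. The 13 measured interferon-inducible GTPases, of 17 listed, were as well (median 3.77). In limma 28 of the 29 and 13 of the 13 rose. The exception was Ifitm3, which blocks viral entry and had 311.6 FPKM in naive cells and 1986 with LPS (adjusted p = 0.0573, KO 1186 and 1675). Rsad2 (viperin), which makes a chain-terminating nucleotide, had 1.23 and 1273 FPKM, Isg15, a ubiquitin-like protein, 4.19 and 1941, and Mx1, an antiviral GTPase, 2.33 and 403.1. The guanylate-binding protein Gbp5 had 6.88 and 810.5 and the immunity-related GTPase Irgm1 25.5 and 361.1. Close paralogs among the Oas, Gbp, Ifit and Bcl2a1 families share sequence, so their FPKM may be split between copies.

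Of the 20 factors that carry the interferon signal, 9 were at least 2-fold higher and 1 was lower, against 8.17% and 39.8% of all genes. The other 10 were within 2-fold, and the median was 0.52. Irf7, which amplifies interferon genes, had 7.45 FPKM in naive cells and 356.1 with LPS, and Usp18, which removes Isg15, 8.63 and 328.2. Stat2 had 11.6 and 86.6, and Irf9 23.9 and 73.0. These 4 rose. The receptor chains Ifnar1 (44.7 and 39.9) and Ifnar2 (127.1 and 175.1) and the kinase Jak1 (96.5 and 84.8) were within 2-fold, while Ifngr1, a chain of the interferon-gamma receptor, had 108.4 and 37.4 and fell. That call was lost after rescaling (adjusted p = 0.0615), when 12 genes of the list were past 2-fold upward and 0 downward, and the 8 that rose and 4 that fell in limma became 11 and 0.

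**Figure D3:**
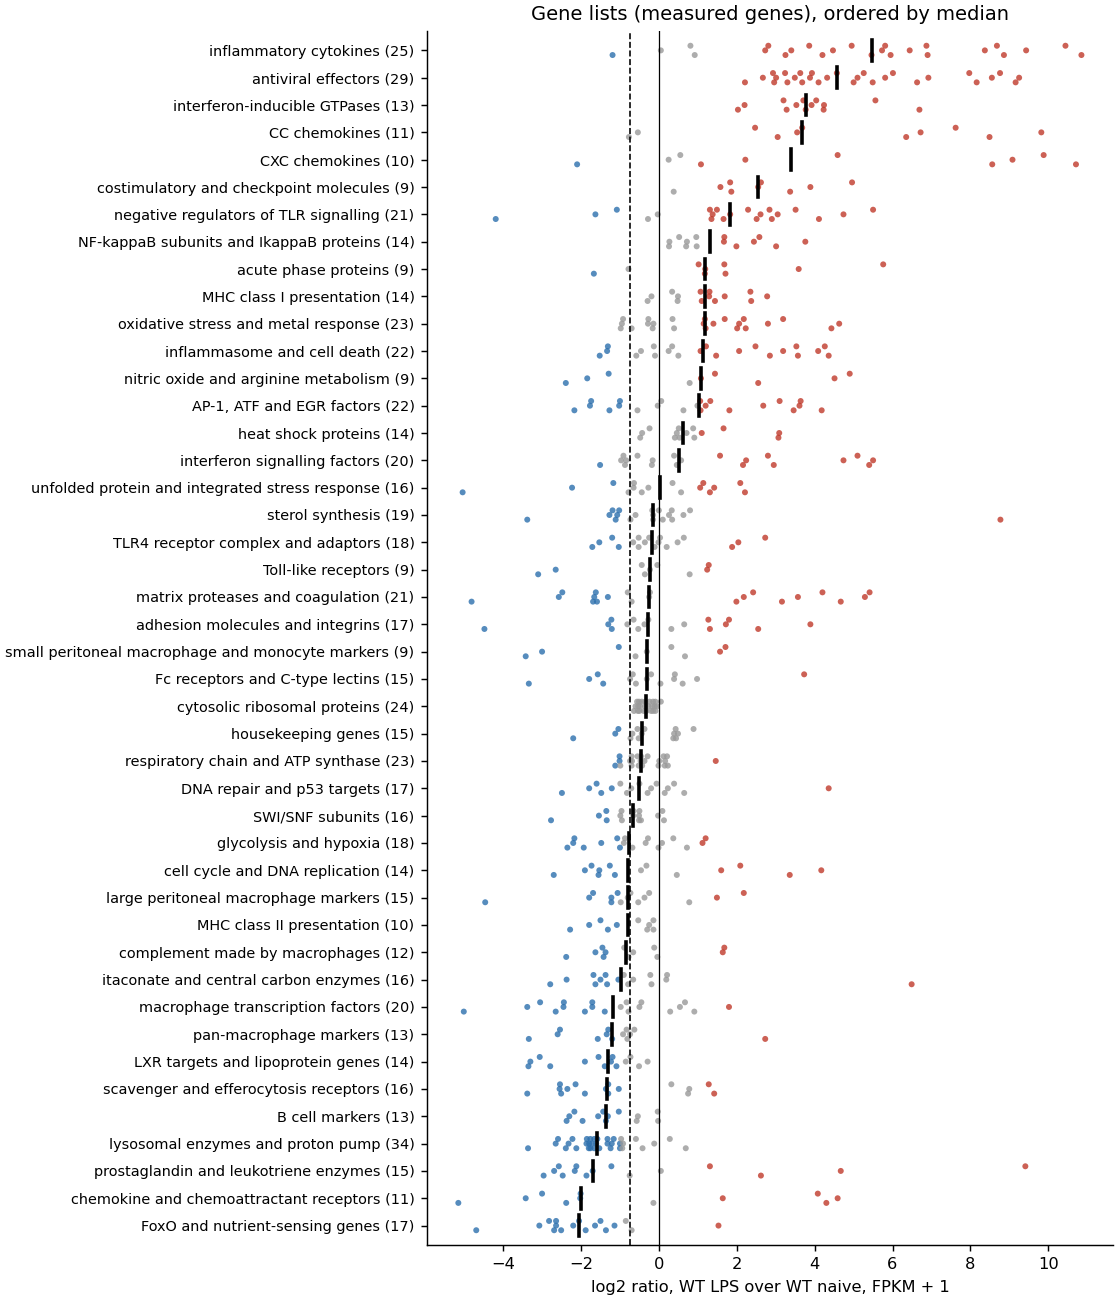
Log2 ratio of WT LPS over WT naive (FPKM + 1) for each measured gene of 44 lists, with the number of measured genes in brackets, black bars at list medians and the dashed line at the all-gene median of -0.74. Cytokine, antiviral, GTPase and chemokine lists lie to the right, and FoxO, receptor, prostaglandin and lysosomal lists to the left. Red points are at least 2-fold higher and blue points at least 2-fold lower.

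Enzymes of the same pathway often went in opposite directions. In prostaglandin and leukotriene synthesis 4 of 15 measured members were 2-fold higher and 9 lower, against 8.17% and 39.8% of all genes. Ptges, the inducible prostaglandin E synthase, had 17.1 FPKM in naive cells and 461.6 with LPS and rose (adjusted p = 0.037). The constitutive cyclooxygenase Ptgs1 had 19.0 and 1.57, the leukotriene enzymes Alox5 16.3 and 2.88 and Lta4h 54.5 and 11.8, and all 3 fell. Nos2 had 0.0752 and 23.5 FPKM (KO 0.453 and 224.5), and the arginine transporter Slc7a2 28.1 and 868.9, and both rose. Arg1, arginase 1, which uses the same substrate, had 16.7 and 2.38 and fell.

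Irg1, which makes itaconate from a citric acid cycle intermediate, stood apart from the enzymes of that cycle. It had 37.0 FPKM in naive cells and 3416 with LPS, a log2 ratio of 6.49, and rose (adjusted p = 0.00167). Of the 16 genes of the list it was the only one at least 2-fold higher as deposited, and 8 were lower (against 39.8% of all genes), among them Idh1 (209.4 and 29.4), Idh2 (39.7 and 6.88) and Sdhb (130.4 and 45.4), which fell. After rescaling, 2 genes of that list were higher and 3 lower, with a median of -0.16. Glycolytic genes lay near all genes: 2 of 18 were higher and 6 lower, against 8.17% and 39.8%, with a median of -0.77 against -0.74. The higher genes were the glucose transporter Slc2a1 (31.8 and 70.2 FPKM) and Pfkp (24.7 and 58.0). Hif1a had 110.5 and 54.9, Ldha 165.4 and 135.9, and Pfkl 43.3 and 8.67. After rescaling, the glycolysis median was 0.06 with 4 genes higher and 4 lower. The respiratory chain list had a median of -0.46 with 1 of 23 higher and 3 lower, against 8.17% and 39.8% of all genes. The ribosomal protein list had a median of -0.34 with 0 of 24 past 2-fold in either direction. Both medians turned positive after rescaling (0.37 and 0.49).

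Stress and metal genes were higher in WT cells in larger number than in KO cells. Of 23 measured, 13 were at least 2-fold higher in WT and 0 lower, against 8.17% and 39.8% of all genes. In KO 3 were higher and 1 lower, against 6.56% and 41.4% of all genes. Mt2, a metallothionein, had 5.40 FPKM in naive WT cells and 157.1 with LPS and rose. Slc7a11, the cystine transporter, had 25.3 and 567.3 and also rose. Hmox1, haem oxygenase 1, had 650.1 and 2104 in WT but 2099 and 1869 in KO, and Sod2, the mitochondrial superoxide dismutase, 67.3 and 474.7 in WT and 346.7 and 460.0 in KO. Neither passed limma (adjusted p = 0.251 and 0.0569), and a difference between the genotypes was not tested. Acute phase genes had the same form, 7 of 9 higher in WT and 2 in KO, against 8.17% and 6.56% of all genes. Saa3, serum amyloid A3, had 10567 and 34694 FPKM in WT, the highest value among the included genes with LPS, and 53305 and 40025 in KO.

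Antigen presentation through class I and class II differed. Of 14 class I genes 9 were past 2-fold upward and 0 downward, against 8.17% and 39.8% of all genes, with a median of 1.19. Tap1, the peptide transporter, had 17.4 FPKM in naive cells and 124.8 with LPS, and Nlrc5, the class I transactivator, 7.22 and 40.9, and both rose. The class I chains H2-K1 (822.1 and 1044) and H2-D1 (1455 and 1191) were within 2-fold. Of 10 class II genes 0 were higher and 5 lower, with a median of -0.81 that was close to that of all genes. Ciita, the class II transactivator, had 16.9 and 2.68 and fell, while H2-Ab1 (794.4 and 720.2) and Cd74 (2451 and 2220) were within 2-fold. B cells also carry class II genes, and the summed FPKM of 13 B cell markers was 1205 in naive cells and 514.9 with LPS. The part of B cells in the class II values was not tested. Costimulatory molecules were higher for 8 of 9 genes, with Cd40 at 18.3 and 599.4 FPKM, Cd274 (PD-L1) at 33.4 and 355.7 and Cd86, which was within 2-fold, at 53.3 and 69.9.

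Sensing and survival genes of the inflammasome list were higher for 12 of 22 genes and lower for 3, against 8.17% and 39.8% of all genes. After rescaling 15 were higher and 0 lower. Nlrp3, the sensor that needs priming, had 18.8 FPKM in naive cells and 335.9 with LPS, and Casp4 (caspase-11), the sensor of cytosolic LPS, 19.7 and 114.8, and both rose. Pycard (ASC), the adaptor that joins sensor and caspase, had 49.2 and 18.9 and fell. Mlkl, the effector of necroptosis, had 6.80 and 70.1 and rose, while Ripk3, the kinase that activates it, had 7.95 and 2.61 and fell, although not after rescaling (adjusted p = 0.0919). Bcl2a1d, an antiapoptotic Bcl2 relative, had 77.6 and 1506.

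Matrix and coagulation genes spread widely to both sides. Of 21 measured, 9 were at least 2-fold higher and 8 lower, against 8.17% and 39.8% of all genes. After rescaling 9 were higher and 3 lower. F3 (tissue factor), which starts coagulation, had 4.61 FPKM in naive cells and 102.3 with LPS, and Serpinb2 (PAI-2), an inhibitor of plasminogen activators, 37.9 and 1526, and both rose. Their counterpart Thbd is given above. Timp1, an inhibitor of matrix proteases, had 1.41 and 101.4 and rose, and Timp2, of the same family, had 364.2 and 60.7 and fell. Plat, tissue plasminogen activator, had 0.122 and 27.6, and Plau, the urokinase type, 83.9 and 26.6.

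Among genes of macrophage identity and of uptake, more were lower than higher, as was so over all genes. Of 20 macrophage transcription factors 1 was at least 2-fold higher and 10 were lower, against 8.17% and 39.8% of all genes. Their median was -1.18, against -0.74 over all genes. After rescaling 5 were higher and 7 lower, with a median of -0.44. Cebpa had 231.7 FPKM in naive cells and 21.4 with LPS, and Rxra, a partner of lipid-sensing receptors, 44.6 and 4.5, and both fell. Cebpb, a factor of the inflammatory response, had 115.4 and 403.5 and was the 1 higher gene. It did not pass limma as deposited but did after rescaling (adjusted p = 0.00966). Sfpi1, which encodes PU.1, had 213.8 and 311.8. Csf1r, the receptor for the growth factor of macrophages, had 895.0 and 147.2, and its ligand gene Csf1 had 8.18 and 59.8. Of 16 scavenger and clearance receptors 2 were higher and 11 lower, against 8.17% and 39.8% of all genes. Rescaled, 5 were higher and 7 lower. Lrp1 (115.3 and 10.1) and Stab1 (32.3 and 4.83) were among the lower genes and fell. Fc receptors and C-type lectins were mostly within 2-fold: of 15 measured, 1 was higher, 4 were lower and 10 were within it (median -0.31). Fcgr3, a low-affinity receptor for antibody, had 812.9 and 79.6 and fell, whereas Fcgr2b, the inhibitory receptor, had 550.1 and 566.1. Clec4e (Mincle), a glycolipid receptor, had 232.1 and 3100.

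Lysosomal genes were lower together. Of 34 measured, 0 were at least 2-fold higher and 26 lower, against 39.8% of all genes, with a median of -1.60. In limma 25 fell, against 54.4% of all genes. Ctsd, whose upstream sequence is printed above, had 10448 FPKM in naive cells and 1730 with LPS (adjusted p = 0.0139, and 0.101 after rescaling). Atp6v0d2, a subunit of the proton pump, had 98.4 and 8.66, and Tfeb, a factor that switches on lysosomal genes through CLEAR elements, 26.8 and 3.43. Ctsc, the protease that activates granule enzymes, went the other way with 183.8 and 297.7. After rescaling, 9 of the 34 were lower and 2 higher, the median was -0.77, and 6 fell and 2 rose in limma, so both counts rested on the scale.

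Lipid handling was lower at the export side and uneven at the synthesis side. Of 14 LXR targets and lipoprotein genes 10 were at least 2-fold lower, against 39.8% of all genes, and 0 higher (median -1.31). After rescaling 5 were lower (median -0.53), and the 9 that fell in limma became 5. Abca1 and Abcg1, the cholesterol exporters, had 68.9 and 29.7 FPKM in naive cells and 5.87 and 3.43 with LPS, and both fell. Apoe, the third most abundant included message of naive cells, had 17362 and 8172, and did not pass limma after rescaling (adjusted p = 0.893). In sterol synthesis 6 of 19 were lower and 1 was higher, Ch25h, against 39.8% and 8.17% of all genes. Dhcr7, which takes the last step to cholesterol, had 16.2 and 0.658 and fell. The median of this list was -0.15 as deposited and 0.61 after rescaling, when 6 genes were higher and 1 lower.

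FoxO factors and genes of nutrient sensing had the lowest median of the 50 lists. Of 17 measured, 14 were at least 2-fold lower and 1 higher, against 39.8% and 8.17% of all genes. Their median was -2.05, and 15 fell in limma and 1 rose. Foxo1, Foxo3 and Foxo4 had 14.6, 9.73 and 12.8 FPKM in naive cells and 2.77, 0.524 and 1.21 with LPS. Ypel3 had 256.6 and 9.01, Tsc22d3 (GILZ), a glucocorticoid-induced leucine zipper protein, 40.8 and 3.97, and Txnip, which restrains glucose uptake, 214.8 and 32.4. Its relative Arrdc4, another arrestin domain gene, was the 1 higher gene with 10.0 and 30.9. After rescaling, 10 of the 17 were still lower and 1 higher. The checkpoint inhibitor gene Cdkn1a (p21) had 67.4 and 703.2, and Cdkn1b (p27) 36.3 and 8.98.

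Markers of other cells were present in the WT pair and did not share 1 direction. Pan-macrophage markers were high, led by Lyz2 at 45134 FPKM in naive cells and 19661 with LPS. Of these 13 markers 7 were at least 2-fold lower, against 39.8% of all genes, and 3 were after rescaling. Their summed FPKM was 61582 in naive cells and 29565 with LPS, and the part of this difference in the lower values of macrophage genes was not tested. Of 15 markers of large peritoneal macrophages 2 were higher and 6 lower, against 8.17% and 39.8% of all genes. Their median log2 ratio was -0.80 against -0.74 over all genes, and after rescaling 3 were higher and 1 lower. Gata6, the defining factor of these cells, had 13 and 6.15 FPKM and F10, a coagulation factor, 80.6 and 368.7. Of 9 markers of small peritoneal macrophages and monocytes 2 were higher and 3 lower, and after rescaling 4 and 2. The monocyte receptor Ccr2 had 9.68 and 0.338 and Ly6c2 3.95 and 15.2. Of 13 B cell markers 9 were lower, and 4 were after rescaling, but Pax5 had 12.6 and 12.3. Of 8 mast cell and eosinophil markers 1 was higher, Hdc, the histamine-making enzyme (1.20 and 49.0), and 2 were lower, Siglec5 and Il5ra. The mast cell proteases Cpa3 (23.1 and 22.5), Tpsb2 (62.4 and 72.6) and Cma1 (40.4 and 48.4) were within 2-fold. Only 5 of 13 T and NK cell markers met the inclusion rule, and Cd3e, Cd3d, Cd4 and Cd8a did not, nor did 8 of 12 neutrophil markers, S100a9 and Ly6g among them, or 12 of 14 mesothelial and fibroblast markers. The part of B and mast cells in the other results was not tested.

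Set beside the KO pair, most genes past 2-fold in WT lay in the same direction in KO. Of the 836 genes at least 2-fold higher in WT, 773 were higher in KO by any amount and 510 by 2-fold (61.0% of the WT set and 76.0% of the 671 genes, 6.56%, that were 2-fold higher in KO). Of 4068 that were 2-fold lower and measured in KO, 4028 were lower there and 3212 by 2-fold (79.0% of the WT set and 75.9% of the 4232 genes, 41.4%, that were 2-fold lower in KO). The 37 genes at least 64-fold higher in WT had a median log2 ratio of 8.16 in WT and 5.82 in KO. In all 37 the naive KO value was above the naive WT value, by a median log2 of 2.07, and in 21 the LPS value was, with a median difference of 0.28. Choosing genes by the WT ratio favours low naive WT values, so part of this gap is built in. Chosen by the KO ratio instead, a comparison added after seeing the data, 20 genes were at least 64-fold higher, with median log2 ratios of 8.42 in WT and 7.06 in KO, and the naive KO value was above the naive WT value in 19 and the LPS value in 17. The 4068 genes 2-fold lower in WT had a median of -1.59 in WT and -1.45 in KO. Il1b, for example, had 10.2 FPKM in naive WT cells and 175.2 in naive KO cells, and 15482 and 9595 with LPS. Over all genes the naive values differed by a median of -0.05. With 1 library per group, a difference of the response between genotypes was not tested, and genotype and library cannot be told apart.

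**Figure D4:**
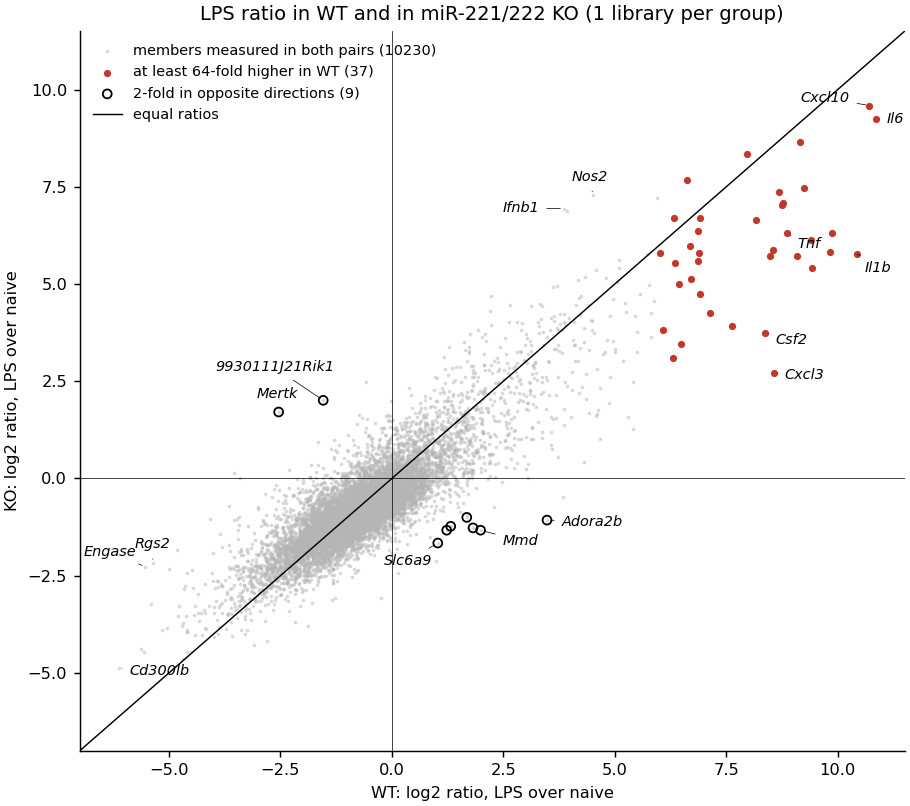
Log2 ratio of LPS over naive (FPKM + 1) in WT (horizontal) against KO (vertical) for 10230 genes measured in both pairs, with the line of equal ratios. Red points are the 37 genes at least 64-fold higher in WT, most of them under the line, and circles mark the 9 genes that were 2-fold higher in 1 genotype and 2-fold lower in the other.

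With LPS itself, single genes differed widely in level between the libraries. Ifnb1, Nos2 and the GTPase Iigp1 had 13.5, 23.5 and 54.7 FPKM in WT with LPS and 134.0, 224.5 and 323.1 in KO, from naive values of at most 2.67. Rsad2 had 1273 in WT and 4650 in KO with LPS, and Ifit2 181.6 and 1025. In the other direction, Csf2 had 388.4 in WT and 48.6 in KO with LPS, and Timp1 101.4 and 27.8. These values are single libraries.

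The genes with the highest ratios were short and their promoters differed in sequence from those of other genes. A RefSeq window of 300 bases, 250 before the start and 50 after it, was matched for 8261 of the 10237 genes (80.7%). The ISRE core was present in 30.0% of genes at least 64-fold higher (9 of 30), in 22.7% of those 8-fold to 64-fold higher, in 7.8% at 2-fold to 8-fold, in 3.5% within 2-fold and in 4.0% of those at least 8-fold lower, against 4.0% of all members and 3.44% of all 32851 windows. The kappaB consensus was present in 26.7%, 11.8%, 9.0%, 5.7% and 4.6% of the same classes, against 6.1% of members and 4.51% of windows. The AP-1 site TGANTCA was present in 26.7% and 21% of the top classes, against 6.2% of members and 7.81% of windows, and a TATAAA between 40 and 20 bases before the start in 6 of 30 and in 7.6%, against 1.4% of members and 1.99% of windows. Matches were counted on both strands except for TATAAA, a gene with several windows counts once, and a match is a description of letters, not a bound site.

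Base composition moved with these classes. Median GC content was 51.2% in the top class and 60.7% over all members, the ratio of observed to expected CpG was 0.33 and 0.77, and the median span of the gene was 6.54 kb and 20.9 kb. By list, the ISRE core was present in 7 of 8 interferon-inducible GTPases with a window (87.5%) and in 13 of 22 antiviral effectors (59.1%). The kappaB consensus was present in 5 of 10 genes of the NF-kappaB list. CACGTG was present in 11 of 24 lysosomal genes (45.8%), as in Ctsd, against 12.4% of members and 7.15% of windows. The part of base composition in these shares was not tested.

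**Figure D5:**
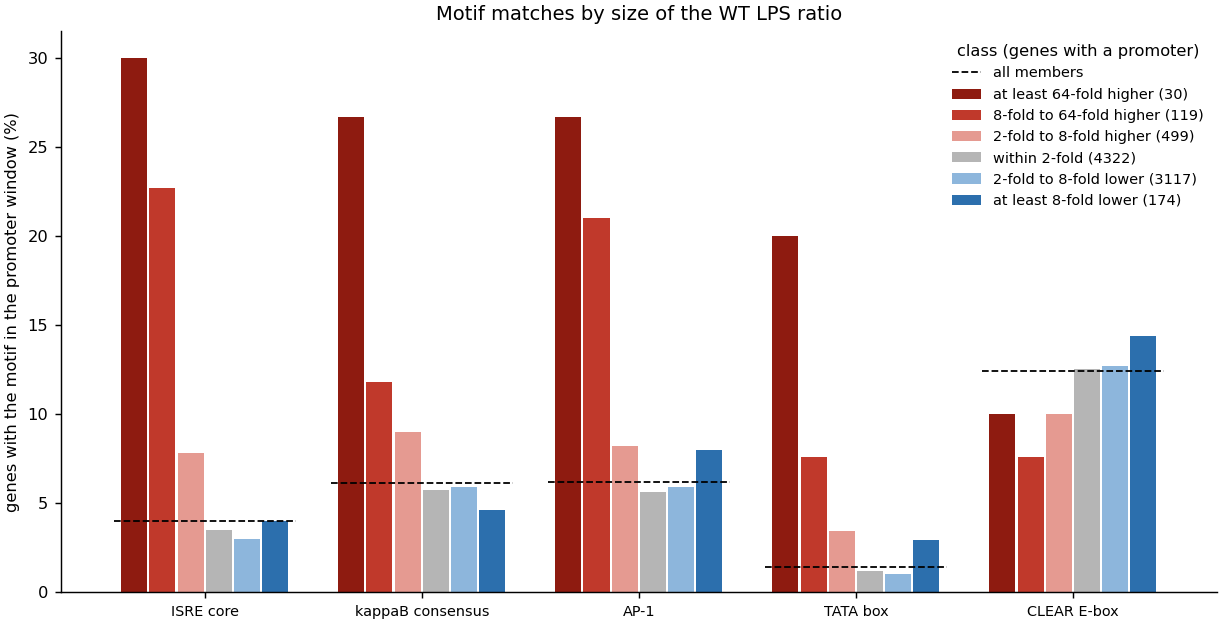
Share of genes with a motif match in the 300-base promoter window (vertical, percent) for 6 classes of the WT ratio, with the number of genes in brackets and the share of all members as dashed lines. ISRE core, kappaB, AP-1 and TATA box shares are highest in the class at least 64-fold higher, which holds 30 genes with a window, and the CLEAR E-box share is not.

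Genes with high ratios also lay next to each other. Of the 201 genes at least 8-fold higher, 65 (32.3%) had another such gene within 100 kb, whereas 2.69% of all 10237 genes had one within that distance. Of the 230 at least 8-fold lower, 16 (7.0%) had a neighbour of their own class, against 3.08%. In 10 places at least 3 genes in a row of the included genes were 8-fold higher. These were the Ifi200 genes Ifi204, Mndal, Mnda, Ifi203 and Ifi205 (chr1:175677425-175961886, mm9), with the nearby Pydc4, Pyhin1 and Pydc3 forming a further run, the chemokines Ccl2, Ccl7 and Ccl12 (chr11:81849079-81916901), and Il1a, Il1b and Gm14047 (chr2:129125346-129201469). The remaining runs held Ifit2, Ifit3, Gm14446 and I830012O16Rik on chromosome 19, Gbp5, Gbp7, Gbp3 and Gbp2 on chromosome 3, Slfn2, Slfn1 and Slfn4 and Gm12250, Igtp and Irgm2 on chromosome 11, the Phf11 group on chromosome 14, and Has1, Fpr1 and Fpr2 on chromosome 17. Neighbours in a run are often members of 1 family, and reads that fit several copies may raise their values together. The span of Gm14047 (chr2:129195638-129201469) overlaps that of Il1b (chr2:129190316-129196856). The part of Il1b reads in the value of Gm14047 was not tested.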

How the data were processed

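Per the labels' protocols, libraries were TruSeq preparations of poly-A RNA, and the design text names a HiSeq2000. The authors deposited 1 table per library with FPKM and the bounds of its interval, per the file headers. Per the submitters' processing notes, the tools were bcl2fastq 1.8.4, TopHat and Cufflinks with the mm9 build. The sources used here give no other version, annotation, strandedness or pooling. Read counts were not used. FPKM summed to 573914 in WT naive and 681618 in WT LPS cells.

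Rows that failed in either WT library were left out, as were 712 rows whose symbols were listed more than once. Together these held 130 rows with at least 2 FPKM. Libraries were grouped by title. The WT pair was described by a rule of size, 2-fold on FPKM plus a pseudocount of 1, because 1 library per group allows no test. LPS against naive was tested over 6 libraries in R 4.3.3 with limma 3.58.1 (eBayes with an intensity trend and a genotype term, two-sided, Benjamini-Hochberg over all genes with 2 FPKM in 2 libraries, threshold 0.05). Its p-values measure the spread between these libraries, which may be technical. Tables were read with Python 3.11.15. The size rule and the fit were tested on simulated data. Start coordinates count from 1.

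The members and the 50 gene lists were chosen with earlier results of these data known. Named genes were the 15 highest and 15 lowest ratios among genes with at least 10 FPKM and intervals that do not overlap, the 10 most abundant per library, the 4 highest and 3 lowest of each list, and 36 genes set by name. Other named genes were chosen after their values were seen. Alternatives were other pseudocounts, minimums, scalings, 4 libraries and leaving out each library. A few genes of these sets are not reported here.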

Additional observations from a re-analysis of the deposited data

Results flagged for a closer look

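In 9 genes the LPS library was at least 2-fold above the naive library in 1 genotype and at least 2-fold below it in the other. Each rests on 1 library per group, and the difference between genotypes was not tested. Mertk, the receptor tyrosine kinase that macrophages use to clear dying cells, had 53.5 FPKM in naive and 8.37 in LPS cells of WT, and 34.2 and 114.2 in KO, log2 ratios of -2.54 and 1.71. For 9930111J21Rik1 the WT values were 13.8 and 4.07 and the KO values 9.04 and 39.5 (log2 ratios -1.54 and 2.01). These 2 genes were lower with LPS in WT and higher in KO. The other 7 were higher in WT and lower in KO. Adora2b, an adenosine receptor, showed 1.74 FPKM without and 29.7 with LPS in WT, against 13.2 and 5.73 in KO, with log2 ratios of 3.48 and -1.07. Mmd, a gene named for monocyte to macrophage differentiation, had 21.2 FPKM in naive and 87.4 in LPS cells of WT, and 10.8 and 3.69 in KO, log2 ratios of 1.99 and -1.33. For Dnmt3l, a cofactor of DNA methyltransferases, the WT values were 0.944 and 5.89 and the KO values 9.21 and 3.23 (log2 ratios 1.82 and -1.27). Ppap2a, a lipid phosphate phosphatase, showed 6.24 FPKM without and 22.1 with LPS in WT, against 47.7 and 23.3 in KO, with log2 ratios of 1.68 and -1.0. Artn, a ligand of the GDNF family, had 0.362 FPKM in naive and 2.41 in LPS cells of WT, and 14.2 and 5.48 in KO, log2 ratios of 1.32 and -1.23. For Ednrb, an endothelin receptor, the WT values were 35.1 and 83.7 and the KO values 74.2 and 28.9 (log2 ratios 1.23 and -1.33). Slc6a9, a glycine transporter, showed 1.67 FPKM without and 4.45 with LPS in WT, against 17.7 and 4.89 in KO, with log2 ratios of 1.03 and -1.66.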

How the results depend on the processing

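The 836 genes that were 2-fold higher in WT became 1849 after median-of-ratios rescaling. The 4070 that were 2-fold lower became 1880 after rescaling, 2100 with a pseudocount of 5, and 2426 of 6852 with a minimum of 10 FPKM. Keeping the 26 small RNA rows, an alternative chosen after seeing the data, gave 4080 lower genes. The limma counts of 887 and 5511 became 2349 and 2410 after rescaling, and ranged from 660 to 891 and from 4119 to 5327 when 1 library was left out at a time, where the lone library of that condition is assumed to vary like the other groups. No named gene past 2-fold changed sign under the alternatives run. Of 353 such names, 130 were past 2-fold upward and 114 downward, against 130 and 72 after rescaling, when the sign changed in 45 of the other 109. The median of 15 of 50 lists also changed sign then, each of them within 2-fold as deposited. The all-gene median was -0.74 as deposited, -1.0 as TPM and -0.64 without the 50 most abundant genes in the sum. No paired analysis was possible because each group has 1 library and every library carries the same number. Counting error limits genes near 2 FPKM.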
